A study of Homo sapiens with 6 samples.

Results

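The genes described here are 10 genes of the circadian clock, CLOCK, PER1, PER2, PER3, CRY1, CRY2, NR1D1, NR1D2, BHLHE40 and BHLHE41, taken by symbol from the deposited expression table; all 10 were present among its 12829 genes. RNA-seq libraries of HaCaT cells, an immortal, aneuploid line of human keratinocytes, were compared between 3 libraries labelled as normal control, of genotype WT, and 3 libraries labelled shIQGAP2, of genotype IQGAP2 knockdown, which carried a short hairpin RNA. Both groups were grown in DMEM with fetal bovine serum. Whether the control cells carried a hairpin, whether the knockdown cells came from a clone, whether cells were synchronised and when they were harvested are details that the sources used here leave unstated. The labels call the libraries biological replicates without saying that they came from separate cultures, and the p-values therefore rest on the spread between these libraries alone, which may be technical. The comparison asks which transcripts differ when IQGAP2, a scaffold protein that binds calmodulin and actin, is reduced.

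The molecular clock is a feedback loop of transcription. CLOCK pairs with BMAL1 (ARNTL in the table) and binds E-boxes in the promoters of the PER and CRY genes, whose proteins return to the nucleus and inhibit the pair. A further loop runs through the nuclear receptors NR1D1 and NR1D2 (REV-ERB alpha and beta), which repress BMAL1, and BHLHE40 and BHLHE41 (DEC1 and DEC2) compete for E-boxes and repress as well. The epidermis has such a clock, and in cultured cells its phase differs from cell to cell unless it has been set.

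The clock genes did not move as a block. NR1D2 rose 2.43-fold and BHLHE41 fell to 0.454 of its control level, while their relatives NR1D1 and BHLHE40 had overlapping groups and did not pass the test. CLOCK, PER2, PER3, CRY1 and CRY2 were higher in the knockdown and PER1 was lower. In all, 6 of the 10 rose and 2 fell in limma's test at an adjusted p below 0.05, where 29.5% of the 11214 genes tested rose and 27.8% fell. Median log2 changes were 0.30 over the 10 clock genes and 0.01 over all genes tested. All 10 passed the filter on low values, a mean of at least 0.5 FPKM.

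Expression is given as FPKM (fragments per kilobase of gene, scaled by library depth), so that levels of different genes can be compared. Values are group means ± SD (n = 3 libraries), and libraries are named in the order of replicates 1, 2 and 3. A log2 change is the knockdown mean of log2(FPKM + 1) less the control mean, a scale on which changes of low genes come out too small. Whole reads behind the FPKM values, recovered as described under processing, came to between 12901037 and 15360759 per library. In these bulk samples, fewer cells with a transcript and less of it in each cell cannot be told apart.

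The targeted gene was low in every library. IQGAP2 was at 0.20, 0.198 and 0.190 FPKM in control and at 0.0196, 0.0328 and 0.0182 FPKM in the knockdown, from 21 to 24 and from 2 to 4 reads. The groups did not overlap, and the knockdown mean was 0.120 of the control mean. On the log2(FPKM + 1) scale, which shrinks changes at such low levels, the change was -0.22 (SE 0.0719, limma adjusted p = 0.0217). An exact two-sided permutation test over the libraries gave p = 0.1, the smallest that 3 against 3 allow. The limma call for IQGAP2 was lost on leaving out any one control library or without knockdown replicate 3 (adjusted p 0.0519 to 0.0556, and 4.13e-05 to 0.0556 over all alternatives).

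Facts of the whole comparison bear on every gene below. Of all genes tested, 57.4% were called in either direction and 65.1% had groups that did not overlap, as had 8 of the 10 clock genes. FPKM summed to between 271372 and 274709 in control and between 234624 and 248082 in knockdown libraries, and rescaling to a common sum moved their median change to 0.14 from 0.01 and the share of calls that were higher from 51.5% to 72.6%. Longer genes changed more upward: the median was -0.19 in decile 1 of exon length and 0.18 in decile 10. Set against the other 2 knockdown libraries, replicate 2 had a like trend, from -0.14 to 0.12. All 8 keratinocyte markers were in the table, at a summed level of 6669 to 6766 FPKM in control and 6700 to 7401 FPKM in the knockdown. Among them KRT5 rose from 1149 ± 3.61 to 1483 ± 62.8 FPKM and KRT14, at 2575 ± 62.0 and 2313 ± 190.2 FPKM, did not pass. In all, 5 of these 8 rose, 3 did not pass and 0 fell with limma, where 29.5% of all genes tested rose. With voom on the recovered reads 5 rose and 1 fell. Markers of other cell types stayed low: fibroblast markers (3 of 6 in the table) summed to 3.46 to 3.79 and 1.56 to 1.91 FPKM, melanocyte markers (2 of 5, led by PMEL) to 1.20 to 1.28 and 0.855 to 1.04, immune markers (1 of 5, CD14) to 0.172 to 0.557 and 0.0467 to 0.261, and endothelial markers (2 of 4) to 0.269 to 0.401 and 0.424 to 0.484. Members of these lists did not all move alike. Of the fibroblast genes LUM fell from 2.21 ± 0.346 to 0.268 ± 0.134 FPKM (adjusted p = 6.40e-06), whereas COL1A1, at 1.24 ± 0.159 and 1.44 ± 0.178 FPKM, did not pass (adjusted p = 0.237). DCN, below the filter, went from 0.207 ± 0.0508 to 0.0426 ± 0.0147 FPKM with no overlap, on 32 to 48 and 6 to 10 reads. With limma and no filter its adjusted p was 0.0164. Of the endothelial genes, both below the filter, VWF was at 0.142 ± 0.0311 and 0.423 ± 0.0528 FPKM and CDH5 at 0.179 ± 0.0886 and 0.0359 ± 0.0381 FPKM, neither with overlap. The other markers of these lists are not analysed here. The part of these cells in the results was not tested.

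**Figure D1:**
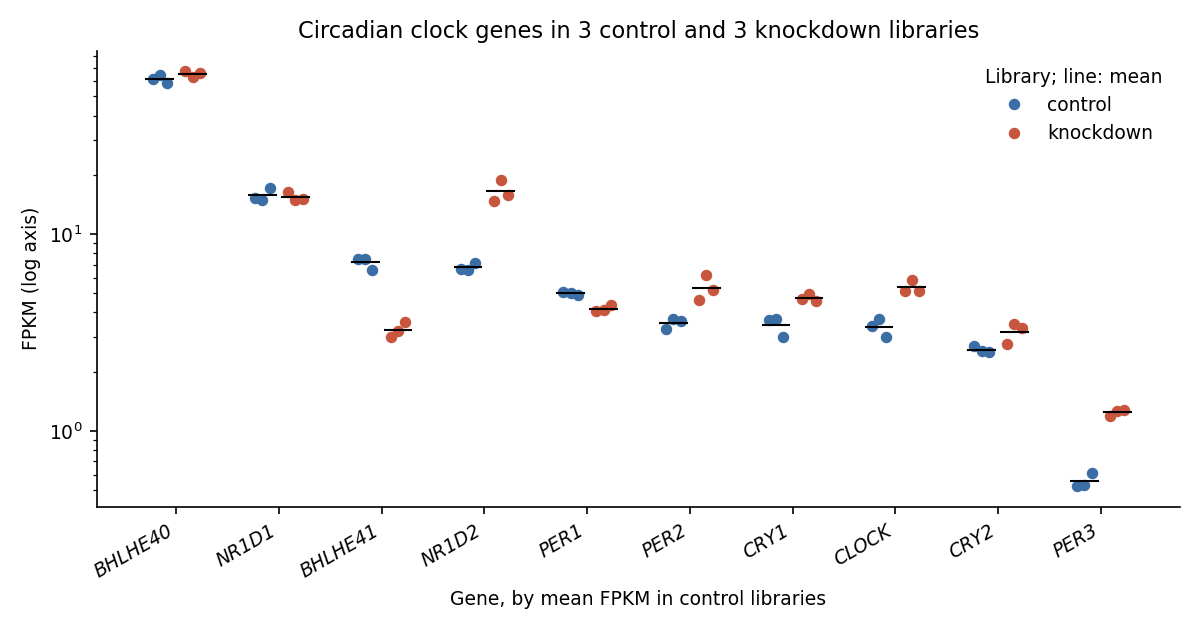
FPKM of the 10 clock genes (log axis) in each control (blue) and knockdown (red) library, with the mean of 3 as a line. NR1D2 rose from 6.78 to 16.5 FPKM and BHLHE41 fell from 7.17 to 3.26 FPKM, while NR1D1 and BHLHE40 overlapped between groups.

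The promoters of these genes are shown because some related members differed in their calls. Whether promoter letters bear on that was not tested. RefSeq starts on GRCh38.p14 gave 14 windows for the 10 genes, each of the 250 bases before a start. Both strands were searched for the E-box CACGTG, the related E-prime box CACGTT, the D-box TTATGNAA (bound by DBP, TEF and the repressor NFIL3), the cyclic AMP element TGACGTCA and the nuclear receptor motif AGGTCA, motifs that do not share letters at any match given here. An E-box lay in a window of 4 of the 10 genes (PER1, NR1D2, BHLHE40 and BHLHE41) and an E-prime box in 5 (CLOCK, PER2, CRY1, CRY2 and NR1D1), against 11.1% and 6.66% of the 10310 genes of the table with a window. Either was present in 9 of 10 (16.9% of genes), PER3 being the exception. A D-box lay in windows of PER1, PER3 and NR1D2 (3 of 10, against 2.38%), the receptor motif in those of PER1 and CRY2 (2 of 10, against 12.1%) and the cyclic AMP element in none (3.4%). Genes with several starts had several windows, and a match describes letters only. By GENCODE v29 the stretches of CRY1, BHLHE40 and BHLHE41 lie within annotated exons and that of CRY2 in part, while those of CLOCK and PER2 lie outside any. Stretches of 30 bases around the match follow, 5′ to 3′ on the gene's strand, with the E-box or E-prime box in capitals.
CLOCK, chr4:55546102-55546131, minus strand: tcaccactcgggCACGTTtggagcagcgcc
PER2, chr2:238288790-238288819, minus strand: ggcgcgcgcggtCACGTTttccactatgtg
CRY1, chr12:107093621-107093650, minus strand: acacacttcagaAACGTGaggtgccggtgg
CRY2, chr11:45847275-45847304, plus strand: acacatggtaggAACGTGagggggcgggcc
BHLHE40, chr3:4979187-4979216, plus strand: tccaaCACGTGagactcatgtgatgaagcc
BHLHE41, chr12:26125068-26125097, minus strand: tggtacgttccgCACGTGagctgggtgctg

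The activator CLOCK (ENSG00000134852, GRCh38 chromosome 4, 55427903 to 55547138, minus strand), the DNA-binding partner of BMAL1 with acetyltransferase activity, was higher in all 3 knockdown libraries. Its level was 3.41, 3.69 and 3.00 FPKM in control and 5.12, 5.85 and 5.15 FPKM in the knockdown, 3.37 ± 0.345 against 5.37 ± 0.414. The groups did not overlap, and the rise was 1.59-fold (log2 change 0.55, SE 0.0812, limma adjusted p = 3.09e-04). CLOCK has 11762 exon bases and lies in the longest decile of genes, where 49.1% of genes rose. With the trend over length removed the change was 0.39 (adjusted p = 0.00102). Its partner did not follow: ARNTL, at 3.25 ± 0.158 FPKM in control and 3.44 ± 0.329 FPKM in the knockdown, missed the threshold (log2 change 0.06, SE 0.0768, adjusted p = 0.505). ARNTL2, the BMAL paralog that was the more abundant here, was at 18.5 ± 0.411 and 19.0 ± 1.84 FPKM (log2 change 0.03, adjusted p = 0.687), with a change of -0.036 once the length trend was removed and -0.035 without knockdown replicate 2. RORA, which activates BMAL1 through the same sites that NR1D1 and NR1D2 occupy, lay below the filter at 0.127 ± 0.0363 and 0.203 ± 0.0466 FPKM, with overlapping groups. For both BMAL genes together, 0 passed at an unadjusted p below 0.05 and 0 with voom. NPAS2 and RORB are not analysed here.

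Of the period genes, the repressors that carry the delay of the loop, 2 rose and 1 fell. PER2 (ENSG00000132326, chromosome 2, 238244038 to 238290102, minus strand) was at 3.30, 3.71 and 3.60 FPKM in control and 4.62, 6.16 and 5.21 FPKM in the knockdown. Every knockdown library lay above every control, with replicate 2 the highest, and the rise was 1.51-fold (log2 change 0.47, SE 0.0913, adjusted p = 0.00148). PER3 (ENSG00000049246, chromosome 1, 7784320 to 7845177, plus strand), the least abundant of the 10, was at 0.525, 0.531 and 0.612 FPKM in control and 1.19, 1.26 and 1.28 FPKM in the knockdown. It rose 2.24-fold with no overlap (log2 change 0.53, SE 0.0726, adjusted p = 1.89e-04), on 61 to 70 and 126 to 158 reads. Tested on the recovered reads with voom, where no pseudocount of 1 FPKM compresses the change, PER3 had a log2 change of 1.15 (adjusted p = 1.83e-05). Of its exon bases, 10.7% are shared with UTS2 and 5.95% with the antisense gene Z98884.1, both on the opposite strand. Neither gene is in the deposited table. The sources used here leave unstated whether counting used strand.

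PER1 (ENSG00000179094, chromosome 17, 8140472 to 8156506, minus strand), the period gene that responds fastest to glucocorticoid and cyclic AMP signals, went the other way. It was at 5.07, 5.02 and 4.91 FPKM in control and 4.04, 4.12 and 4.38 FPKM in the knockdown. The groups did not overlap, though the fall was small, to 0.835 of control (log2 change -0.21, SE 0.0629, adjusted p = 0.0149). Rescaled to a common sum, the PER1 change was -0.08 and did not pass (adjusted p = 0.382), nor did it without control replicate 1 (-0.21, adjusted p = 0.0529 and 0.003 to 0.382 across the alternatives). Windows of both PER1 and PER3 hold a D-box, and that of PER1 also holds an E-box and the receptor motif. The D-box of PER1, TTATGCAA, begins 30 bases before the start, within an annotated exon and so past the end of the stretch printed here. Both stretches run as far as they have no annotated exon, with the E-box CACGTG and the receptor motif (TGACCT on this strand) of PER1 and the D-box of PER3 in capitals.
PER1, chr17:8152436-8152654, minus strand: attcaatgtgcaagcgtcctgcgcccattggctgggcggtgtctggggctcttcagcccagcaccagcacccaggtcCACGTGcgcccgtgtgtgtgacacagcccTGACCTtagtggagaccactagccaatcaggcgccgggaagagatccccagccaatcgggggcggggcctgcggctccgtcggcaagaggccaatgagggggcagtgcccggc
PER3, chr1:7784041-7784290, plus strand: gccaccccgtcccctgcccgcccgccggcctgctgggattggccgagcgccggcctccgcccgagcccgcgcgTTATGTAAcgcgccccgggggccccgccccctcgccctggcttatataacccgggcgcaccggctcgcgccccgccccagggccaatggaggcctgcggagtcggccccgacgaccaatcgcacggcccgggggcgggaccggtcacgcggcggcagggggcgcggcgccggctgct

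The cryptochromes, which with the PER proteins inhibit CLOCK and BMAL1, were both higher, though the call of CRY2 depended on the processing. CRY1 (ENSG00000008405, chromosome 12, 106991364 to 107093829, minus strand) was at 3.68, 3.70 and 3.00 FPKM in control and 4.68, 4.93 and 4.59 FPKM in the knockdown. The groups did not overlap and the rise was 1.37-fold (log2 change 0.37, SE 0.0795, adjusted p = 0.00295). CRY2 (ENSG00000121671, chromosome 11, 45847118 to 45883248, plus strand) was at 2.69, 2.53 and 2.51 FPKM in control and 2.75, 3.48 and 3.35 FPKM in the knockdown. Knockdown replicate 1 lay just above the highest control, and the rise was 1.24-fold (log2 change 0.23, SE 0.0825, adjusted p = 0.0386). The CRY2 call was lost in 8 of 15 alternatives, among them the length trend removed (0.18, adjusted p = 0.067) and the omission of knockdown replicate 2 (0.18, adjusted p = 0.0911) or of any control library, with a range of 0.00742 to 0.108.

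The largest change was that of NR1D2 (ENSG00000174738, chromosome 3, 23945260 to 23980618, plus strand), a heme-binding repressor of BMAL1. It was at 6.61, 6.60 and 7.12 FPKM in control and 14.7, 18.9 and 15.9 FPKM in the knockdown, from 540 to 584 and from 1107 to 1692 reads. The lowest knockdown library held more than the highest control by a wide margin. The rise of 2.43-fold (log2 change 1.16, SE 0.0830, adjusted p = 3.40e-06) ranked 56 among the 11214 genes tested, and held in all 16 alternatives, from 1.07 to 1.31. NR1D1 (ENSG00000126368, chromosome 17, 40092787 to 40100725, minus strand), which recognises the same sites, was at 15.3, 15.0 and 17.1 FPKM in control and 16.3, 14.9 and 15.1 FPKM in the knockdown. Its groups overlapped (log2 change -0.03, SE 0.0621, adjusted p = 0.721), and its sign turned with the processing, to 0.13 under a common sum and 0.085 with the length trend removed, neither of which passed (adjusted p = 0.101 and 0.232). THRA, the thyroid hormone receptor gene on the opposite strand, shares 263 exon bases with NR1D1 (9.49% of them) and was at 4.06 ± 0.410 and 3.49 ± 0.340 FPKM (adjusted p = 0.107).

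The promoters of this pair differ in the letters searched for. A window of NR1D2 holds 2 E-boxes, 155 and 105 bases before the start, and a D-box on the opposite strand, all in capitals. The NR1D1 window holds an E-prime box on the opposite strand, 168 bases before its start, and is shown as far as it has no annotated exon.
NR1D2, chr3:23945871-23946120, plus strand: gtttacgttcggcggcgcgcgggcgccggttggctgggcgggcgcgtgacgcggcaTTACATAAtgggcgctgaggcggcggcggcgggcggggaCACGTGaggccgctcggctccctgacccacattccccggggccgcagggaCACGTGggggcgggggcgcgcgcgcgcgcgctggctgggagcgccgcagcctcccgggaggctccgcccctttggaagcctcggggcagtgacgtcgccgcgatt
NR1D1, chr17:40100726-40100839, minus strand: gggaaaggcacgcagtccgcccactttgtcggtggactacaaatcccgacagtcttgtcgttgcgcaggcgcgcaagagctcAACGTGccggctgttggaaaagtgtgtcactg

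BHLHE41 (ENSG00000123095, chromosome 12, 26120026 to 26125127, minus strand), a repressor that competes with CLOCK and BMAL1 at E-boxes and is known for a human short-sleep phenotype, showed the largest fall of the 10. It was at 7.49, 7.47 and 6.55 FPKM in control and 2.99, 3.20 and 3.58 FPKM in the knockdown. The highest knockdown library was well below the lowest control (log2 change -0.94, SE 0.0779, adjusted p = 8.51e-06), and the fall ranked 118 among the 11214 genes tested. It held in all 16 alternatives, from -1.15 to -0.80. SSPN on the opposite strand shares 162 exon bases with BHLHE41 (4.10% of them), and was at 1.17 ± 0.128 and 1.06 ± 0.190 FPKM (adjusted p = 0.494). BHLHE40 (ENSG00000134107, chromosome 3, 4979116 to 4985323, plus strand), its close relative and by far the most abundant of the 10, was at 61.6, 64.2 and 58.8 FPKM in control and 67.0, 63.0 and 65.8 FPKM in the knockdown. The groups overlapped and the difference did not pass (log2 change 0.08, SE 0.0486, adjusted p = 0.171). BHLHE40 passed as higher under a common sum (0.25, adjusted p = 8.51e-04), with quantile normalization (0.12, adjusted p = 0.040), with the length trend removed (0.13, adjusted p = 0.0304) and without knockdown replicate 2 (0.11, adjusted p = 0.0438), the adjusted p running from 8.51e-04 to 0.486 across the alternatives.

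**Figure D2:**
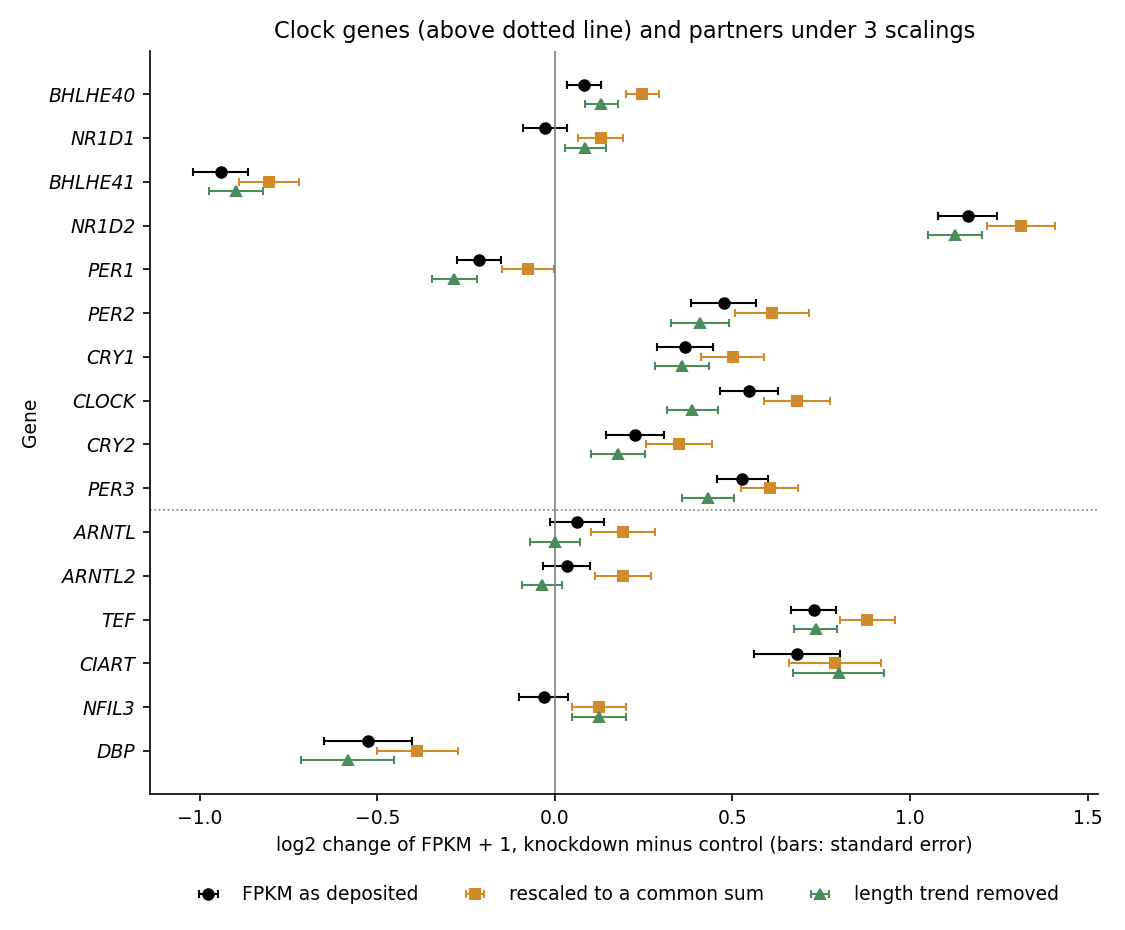
Log2 change of FPKM + 1, knockdown minus control, with its standard error, for the 10 clock genes and 6 partner genes, with FPKM as deposited, rescaled to a common sum and with the trend over exon length removed. NR1D2 and BHLHE41 lay at 1.16 and -0.94 as deposited and kept their sides, while NR1D1 crossed 0.

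Because the order of abundance rests on per-length values, it can be read within each group. In control libraries BHLHE40 was followed by NR1D1, BHLHE41, NR1D2, PER1, PER2, CRY1, CLOCK, CRY2 and PER3. BHLHE41 and NR1D2 overlapped there, as did PER2 with CRY1 and CRY1 with CLOCK. In knockdown libraries NR1D2 stood beside NR1D1 (16.5 ± 2.15 and 15.4 ± 0.749 FPKM, overlapping), and BHLHE41 had dropped to the level of CRY2 (3.26 ± 0.295 and 3.19 ± 0.386 FPKM, overlapping).

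Whether relatives differed in response was tested directly, on the difference between 2 genes in each library. NR1D2 stood at 0.432, 0.441 and 0.417 of the NR1D1 level in control and at 0.902, 1.27 and 1.05 in knockdown libraries, so that the pair went from unequal to about equal. BHLHE41 went from 0.121, 0.116 and 0.111 of BHLHE40 to 0.0447, 0.0509 and 0.0544. PER2 went from 0.652, 0.738 and 0.733 of PER1 to 1.14, 1.5 and 1.19, changing places with it. These groups of ratios did not overlap, and nor did those of PER3 to PER1, 0.111 ± 0.0116 in control and 0.298 ± 0.00671 in knockdown libraries. The log2 changes differed by 1.19 (SE 0.136) for NR1D2 against NR1D1, by -1.02 (SE 0.0726) for BHLHE41 against BHLHE40, by 0.69 (SE 0.112) for PER2 against PER1 and by 0.74 (SE 0.0403) for PER3 against PER1. Each had an exact two-sided permutation p = 0.1, the smallest that 3 against 3 allow, and 0.15 adjusted over the 6 pairs compared, so that none could pass.

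CRY2 against CRY1 differed by -0.14 (SE 0.0975, exact permutation p = 0.3, adjusted 0.36), with overlapping ratios of 0.751 ± 0.0775 and 0.674 ± 0.0752. PER3 against PER2 differed by 0.05 (SE 0.0993, exact permutation p = 0.6, adjusted 0.6). On the FPKM scale, however, the ratio of PER3 to PER2 went from 0.157 ± 0.0135 to 0.236 ± 0.0283 with no overlap, and with a pseudocount of 0.1 the difference was 0.47 (SE 0.120, exact permutation p = 0.1). The 2 scales thus give PER3 and PER2 a different relation.

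**Figure D3:**
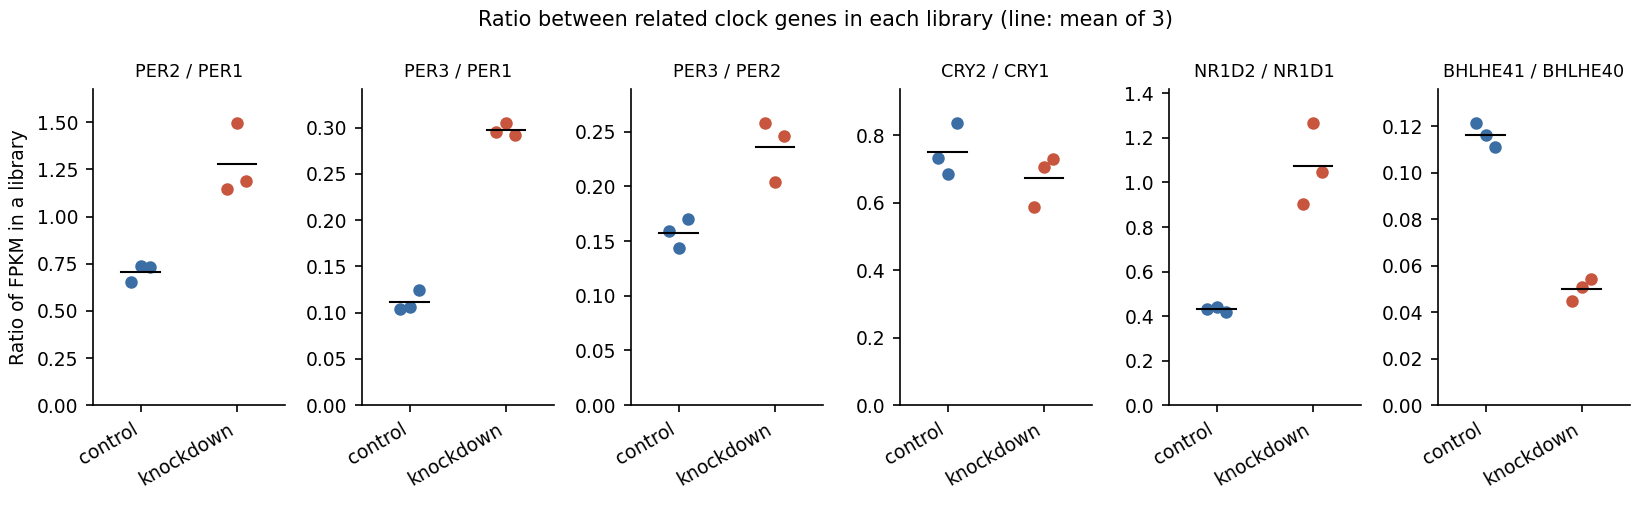
Ratio of FPKM between related clock genes in each library, control (blue) and knockdown (red), with the mean of 3 as a line and each axis starting at 0. The NR1D2 to NR1D1 ratio went from a mean of 0.430 to 1.07 and that of BHLHE41 to BHLHE40 from 0.116 to 0.050, while CRY2 to CRY1 overlapped.

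Exon length was set beside these changes because of the trend over all genes. The changes of PER1 and BHLHE41 lay below the median of their length decile and those of the other 8 clock genes above it. PER1 is in decile 8, where 35.9% of genes rose and 18.9% fell. BHLHE41 and BHLHE40 are both in decile 4, where the median change was -0.05, so this pair is close in length. With the length trend removed, 6 of the 10 rose and 2 fell, BHLHE40 passing and CRY2 not. The median over the 10 was then 0.27, and 0.42 under a common sum, where all genes had a median of 0.14.

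**Figure D4:**
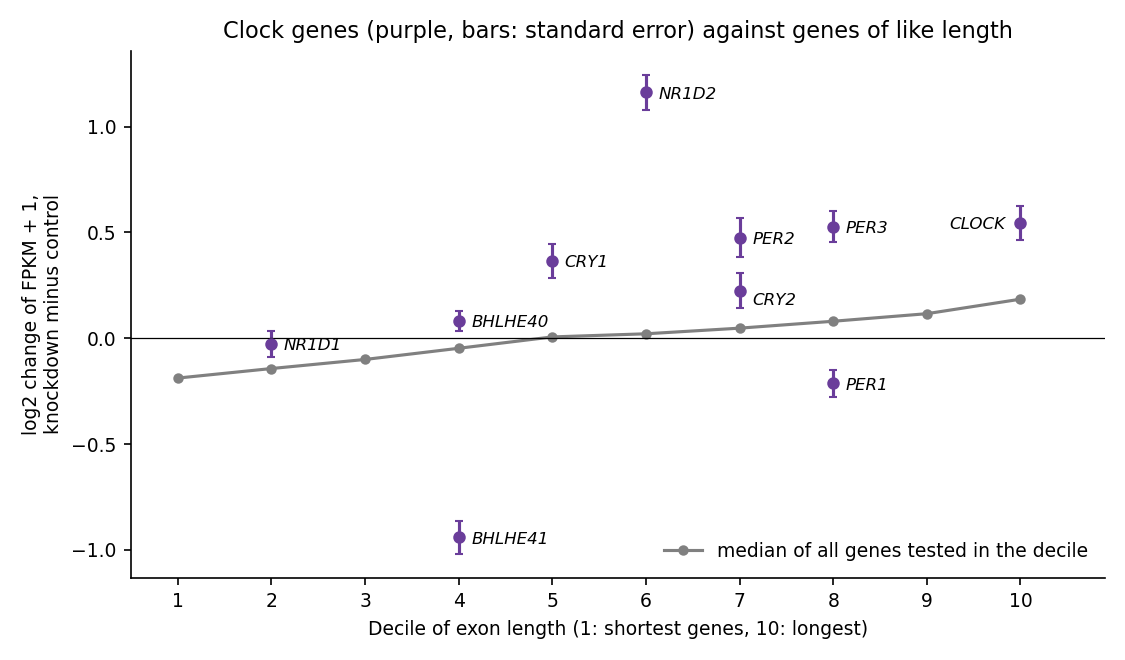
Log2 change of FPKM + 1 (knockdown minus control, bars give the standard error) of the 10 clock genes by decile of exon length, with the median of all genes tested in each decile as a grey line rising from -0.19 to 0.18. NR1D2 at 1.16 and BHLHE41 at -0.94 lie farthest from the line.

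Within the knockdown group, replicate 2 was the highest library for 5 of the 10 clock genes (CLOCK, PER2, CRY1, CRY2 and NR1D2) and the lowest for 2 (NR1D1 and BHLHE40), against 44.9% and 35.5% of all genes tested (80.3% for either). The median SD of log2 values over the knockdown libraries was 0.079 for the clock genes and 0.091 for all genes tested. Without replicate 2 the counts were again 6 rises and 2 falls, with BHLHE40 in place of CRY2.

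Direct outputs of the loop, the PAR-bZIP factors and their rivals, went both ways. DBP, the best known output gene of CLOCK and BMAL1, was at 6.57, 7.24 and 6.40 FPKM in control and 4.88, 3.27 and 5.16 FPKM in the knockdown, a fall without overlap (log2 change -0.53, SE 0.124, adjusted p = 0.0046). Its relative TEF, which binds the same D-boxes, rose from 7.41 ± 0.425 to 12.9 ± 0.755 FPKM, a log2 change of 0.73 (adjusted p = 1.17e-05). CIART, a repressor of CLOCK and BMAL1, rose from 1.23 ± 0.0757 to 2.61 ± 0.672 FPKM, a log2 change of 0.68 (adjusted p = 9.13e-04). NFIL3, the D-box repressor, overlapped at 15.5 ± 0.388 and 15.2 ± 1.5 FPKM (adjusted p = 0.714), and its sign turned from -0.03 to 0.12 under a common sum and with the length trend removed. HLF is not analysed here. Of these 4 genes 2 rose and 1 fell (median 0.32), where 29.5% of all genes tested rose and 27.8% fell (median 0.01).

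Of 17 enzymes tested that modify clock proteins or set their stability, 10 rose and 7 did not pass (median 0.22). Of all genes tested 29.5% rose and 27.8% fell (median 0.01). With limma 0 of the 17 enzymes fell, as did 0 at an unadjusted p below 0.05 and 0 with voom on the recovered reads, which called 11 higher. In 3 alternatives 1 fell (quantile normalization, the length trend removed, and without knockdown replicate 3). The casein kinase CSNK1A1 rose from 18.5 ± 0.235 to 33.4 ± 3.08 FPKM (adjusted p = 5.54e-06). The ubiquitin ligase HUWE1 rose from 18.5 ± 0.402 to 28.0 ± 2.75 FPKM, and its log2 change of 0.57 ran from 0.36 to 0.73 over the alternatives. The PER kinases CSNK1D and CSNK1E were at 11.2 ± 0.571 against 10.7 ± 0.0281 and 9.84 ± 0.833 against 9.23 ± 0.334 FPKM and did not pass (adjusted p = 0.389 and 0.324). Their changes of -0.06 and -0.08 turned to 0.095 and 0.070 under a common sum, and CSNK1D passed as lower with the length trend removed (-0.21, adjusted p = 0.010, and 0.010 to 0.808 across the alternatives).

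Among partners and cofactors of the clock, 7 of 13 rose and 2 fell (median 0.22), against 29.5% and 27.8% of all genes tested. Under a common sum 9 of the 13 rose and 1 fell, and with the length trend removed 6 rose and 3 fell. With voom, and without knockdown replicate 1, 7 rose and 3 fell. The coactivator CREBBP rose from 3.48 ± 0.193 to 6.33 ± 0.730 FPKM. EP300, its close relative, rose from 3.57 ± 0.349 to 6.38 ± 0.701 FPKM, and CIPC, an inhibitor that binds CLOCK, rose from 3.27 ± 0.297 to 4.70 ± 0.186 FPKM. The log2 change of CREBBP, 0.71 as deposited, ran from 0.52 to 0.85 over the alternatives, and that of EP300, 0.69, from 0.52 to 0.83. Of 8 clock-controlled output genes tested, 5 rose and 1 fell (median 0.38), again against 29.5% and 27.8% of all genes tested. VEGFA, a growth factor of blood vessels, rose from 25.7 ± 0.441 to 43.8 ± 3.76 FPKM. NOCT, a rhythmic phosphatase of nicotinamide cofactors, rose from 1.18, 1.46 and 1.73 FPKM to 3.34, 5.66 and 4.77 FPKM. The next list was for glucocorticoids and cyclic AMP, signals to which PER1 also responds. Besides genes that they induce, it held CRTC1, CRTC2 and CRTC3, coactivators of the cyclic AMP response. Of its 13 genes 4 rose and 4, CRTC2 among them, fell (median -0.07). These counts were near the shares of all genes tested, 29.5% higher and 27.8% lower. With the length trend removed, 4 of the 13 were higher and 7 lower. ERRFI1, an inhibitor of the EGF receptor, rose from 30.4 ± 0.379 to 49.8 ± 3.86 FPKM. TSC22D3, the leucine zipper protein GILZ, rose from 16.9 ± 0.104 to 24.5 ± 1.07 FPKM, and the nuclear receptor NR4A1 fell from 11.3 ± 0.185 to 7.16 ± 0.731 FPKM.

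**Figure D5:**
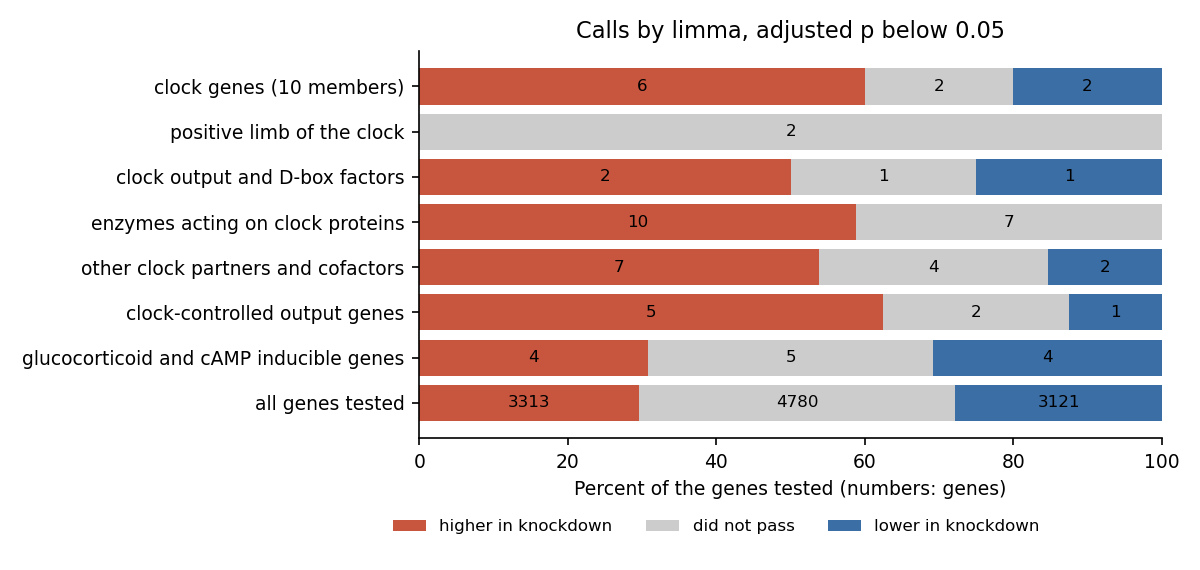
Share of tested genes called higher (red), not passed (grey) or lower (blue) in the knockdown by limma at an adjusted p below 0.05, for the 10 clock genes, 6 related lists and all genes, with the number of genes in each part. Among the 10 clock genes 6 rose and 2 fell, and among the 2 genes of the positive limb neither passed.

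The 3 genes whose pattern over the 6 libraries was most like that of NR1D2 were NUAK1, a kinase of the AMPK family, SLC30A1, a zinc exporter, and F3, tissue factor. Likeness was the root mean square difference of log2(FPKM + 1) after each gene's control mean was taken off. It was 0.0604, 0.0709 and 0.0720 for the 3 genes. NUAK1 rose from 5.14, 5.18 and 4.97 FPKM to 11.7, 14.8 and 11.5 FPKM. Knockdown replicate 2 was its highest, as for NR1D2 and for 44.9% of all genes tested. Since NUAK1 was chosen by likeness over these same libraries, this adds nothing. SLC30A1 rose from 6.03 ± 0.256 to 14.4 ± 1.74 FPKM, and F3 went from 327.7 ± 4.09 to 736.9 ± 37.2 FPKM.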

How the data were processed

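RNA-seq covered 6 HaCaT libraries, 3 per group, with groups taken from the sample titles. Per the labels' protocols, RNA was extracted with TRIzol and libraries were made with a TruSeq RNA kit. The authors deposited FPKM values for each gene in each library. The submitters' processing notes name HISAT2 2.2.1 and GRCh38. No source used here names the counting program, the annotation or the use of strand. Every gene in the table had a mean of at least 0.1 FPKM. Since FPKM is relative to the whole library, a fall of abundant transcripts raises the values of others.

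Values of a gene were multiples of a common step, from which whole reads were recovered for all 12829 genes (each value within 0.004 reads of a whole number). A factor shared by all 6 values would go unseen. No molecular identifiers were used as far as the sources state, so reads are not separate molecules.

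Log2(FPKM + 1) was tested with limma 3.58.1 (R 4.3.3) over the 11214 genes whose mean reached 0.5 FPKM, with group as the only factor, a mean-variance trend, two-sided p-values and Benjamini-Hochberg adjustment over all genes tested (threshold 0.05). IQGAP2, below the filter, was added to the same fit. Exon lengths and gene positions came from GENCODE v29, which matched 12818 genes. Related genes were compared by exact permutation of libraries. Promoter sequences came from RefSeq, GRCh38.p14. The fit was run on simulated counts with a fixed spread, few changed genes and no trend over length. It called 92.5%, 100% and 100% of genes changed 1.5-, 2- and 4-fold, and 6 of 11003 unchanged genes. The data differ from these settings, so the simulation does not show how the fit performs on them. Alternatives were pseudocounts of 0.1 and 0.5, no filter or a mean of 5 FPKM or more, a common sum, quantile normalization, removal of each library's trend over exon length, voom on recovered reads with trimmed-mean factors, the replicate number as a block, no variance trend, and each library left out.

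The 10 genes and the related lists were chosen with earlier results of these data known. The rule named all 10, IQGAP2, set partner genes of the clock, up to 3 of the largest changes among called genes of each related list, KRT5, KRT14 and the leading gene of each other marker list, and the 3 genes closest to NR1D2 by the stated measure. LUM, DCN, CDH5, THRA and SSPN were named after their values were seen. Some genes that the rule names are not reported here.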

Additional observations from a re-analysis of the deposited data

How the results depend on the processing

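Over the 15 or 16 alternatives run, CLOCK, PER2, PER3, CRY1, NR1D2 and BHLHE41 kept their direction and their call wherever they were tested. PER1, CRY2 and BHLHE40 did not, as given above. A filter at a mean of 5 FPKM left 4 of the 10 clock genes, of which 1 rose and 1 fell. Under a common sum 7 of the 10 rose and 1 fell. Of all genes tested 4864 then rose and 1838 fell, against 3313 and 3121 as deposited. With the length trend removed 13 genes of the 6 related lists fell, against 8, and 7 against 4 of these were in the list for glucocorticoids and cyclic AMP. NR1D1 changed sign under a common sum (0.13), with the length trend removed (0.085) and without control replicate 3 (0.026, with -0.065 to 0.026 on leaving out each library). ARNTL2 changed sign with the length trend removed (-0.036) and without knockdown replicate 2 (-0.035, with -0.035 to 0.097 on leaving out each library), and NFIL3 under a common sum (0.12), with the length trend removed (0.12) and without knockdown replicate 1 (0.047, with -0.080 to 0.047 on leaving out each library). CSNK1D and CSNK1E turned to 0.095 and 0.070 under a common sum. The difference of PER3 from PER2 was -0.0058 under a common sum. The cause was not tested. Leaving out each library in turn gave 5 to 6 rises and 1 to 2 falls among the 10, a change of -0.23 to -0.22 for IQGAP2 and a difference of -0.013 to 0.14 for PER3 from PER2.

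Replicate numbers did not pair the libraries: deviations of same-numbered libraries from their group means correlated at -0.067, -0.038 and 0.019 over genes. With the replicate number as a block, 3167 genes rose and 3024 fell, and 5 of the 10 clock genes rose and 2 fell, CRY2 not passing (adjusted p = 0.0598). The count test planned on the recovered reads was not run. Among the 10 clock genes PER3 had the fewest reads, at most 158 in a library. IQGAP2 had at most 24, RORA 60, LUM 104 and CIART 145.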
